A study of Rattus norvegicus and Mus musculus with 9 samples.

Results

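The enzymes that write, copy and erase DNA methylation were examined in embryonic stem (ES) cells and embryonic fibroblasts. The genes were chosen by name, as the rows of 2 microarray tables whose platform symbol is one of 10: Dnmt3a, Dnmt3b, Dnmt3l, Dnmt1, Uhrf1, Uhrf2, Tet1, Tet2, Tet3 and Tdg. The rat table named 7 of them among its 14506 named genes, without Tet1, Tet2 and Tet3, and the mouse table named 9 of them among 19938, without Tdg. The 6 genes named in both tables are the 3 Dnmt3 genes, Dnmt1, Uhrf1 and Uhrf2. Where a gene had several probe sets, the one with the highest mean over the arrays of its table was used.

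RNA came from mouse ES cells, rat ES cells and rat embryonic fibroblasts, with 3 arrays per group and 9 in all. The mouse ES cells were of strain C57/BL6 and grew in a serum medium (GMEM) supplied with leukaemia inhibitory factor, and their feeder cells were taken away before RNA was extracted. Both rat groups were of strain DA; the ES cells were kept in a medium called 3I, and the fibroblasts in GMEM with serum. In the rat comparison, medium therefore differs together with cell type and their effects cannot be told apart; between mouse and rat ES cells, species, medium and array platform all differ. Separate cultures, and the number of ES lines, are not stated for any group, so each p-value reflects array-to-array spread that may be purely technical. In such bulk RNA, fewer cells of a type and less RNA per cell cannot be told apart.

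Median signals were 4.75 to 4.77 on the mouse arrays and 5.71 to 5.74 on the rat arrays, on the log2 scale used throughout. The labelled cell types were checked against their markers: rat ES cells were higher for all 7 ES cell markers, Pou5f1 and Nanog among them, and lower for 8 of 9 fibroblast markers. Some markers of other cell types were also called higher in rat ES cells: 2 of 6 for trophoblast (Cdx2, 14.0-fold, and Tfap2c, 10.1-fold), 2 of 5 for blood and macrophages (Laptm5, 14.6-fold, and Gata1, 8.41-fold) and 1 of 4 for endothelium (Tie1, 8.01-fold), with all 5 genes below the array medians in fibroblasts. For primitive endoderm, neural cells and skeletal muscle, 0 of 5, 0 of 4 and 0 of 4 were. Other markers were called lower in rat ES cells: 1 of 6 for trophoblast (Gata3, log2 difference -1.71) and 1 of 4 for endothelium (Tek, -1.31). Tek was below the array medians in both groups. None of the blood and macrophage markers was called lower. For primitive endoderm, neural cells and skeletal muscle, 2 of 5, 2 of 4 and 1 of 4 were called lower. Of all 14506 genes, 10.6% were called higher and 10.1% lower. The summed signal of the trophoblast list was 9.91 to 10.01 on the rat ES arrays and 8.39 to 8.61 on the fibroblast arrays. For blood and macrophages it was 9.305 to 9.444 on the rat ES arrays and 6.61 to 6.91 on the fibroblast arrays, and for endothelium 8.29 to 8.56 on the rat ES arrays and 6.81 to 6.93 on the fibroblast arrays. Such sums weigh the brightest genes of a list most and do not stand for all its markers. The fibroblast markers were not absent from the rat ES arrays. Their summed signal, as log2 of the sum over the 9 genes, was 11.02, 11.38 and 11.74 on rat ES arrays 1, 2 and 3, and 15.76 to 15.84 on the fibroblast arrays. The labels make no statement about feeder cells for rat ES cultures, and the part of RNA from feeder or other cells in the results below was not tested. On the mouse arrays, 15447 of 35557 probe sets repeated 1 value across the 3 arrays, so no SD is given for them.

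DNA methylation in mammals is a methyl group on cytosine, mostly where cytosine is followed by guanine (CpG). Dnmt3a and Dnmt3b place it on unmethylated DNA, and Dnmt3l, which has no catalytic activity of its own, stimulates them. Dnmt1 copies the mark to the new strand after replication, guided by Uhrf1, which binds DNA methylated on 1 strand only; Uhrf2 is its paralog. Tet1, Tet2 and Tet3 oxidize methylated cytosine, and the glycosylase Tdg excises the most oxidized forms for repair. In mouse ES cells the level of methylation is known to depend strongly on the culture medium.

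Among the de novo enzymes, Dnmt3l and Dnmt3b rose in rat ES cells and Dnmt3a did not pass the test. The signals of Dnmt3l were 10.90, 11.22 and 11.18 in rat ES cells and 4.97, 4.76 and 4.70 in fibroblasts. All 3 rat ES arrays lay far above all 3 fibroblast arrays, with means of 11.10 ± 0.178 in rat ES cells and 4.81 ± 0.138 in fibroblasts (SD, n = 3 each). The log2 difference was 6.29 (SE 0.11, 95% interval 6.04 to 6.54), or 78.3-fold, with a Benjamini-Hochberg adjusted p of 3.28e-09 in limma, and it was the 8th largest increase of 14506 genes. Dnmt3b, whose product methylates pericentromeric repeats among other sites in mouse, had signals of 7.45, 6.82 and 6.76 in rat ES cells and 4.13, 4.68 and 4.58 in fibroblasts. The groups did not overlap, though its spread was the widest of the 7 genes, with SDs of 0.385 in rat ES cells and 0.290 in fibroblasts. Its log2 difference was 2.55 (SE 0.21, 95% interval 2.07 to 3.02, limma adjusted p = 8.46e-06), or 5.84-fold. In fibroblasts both Dnmt3l and Dnmt3b were dimmer than the median probe set, where signal and background cannot be separated, so both folds are uncertain in size. The rat ES array with the highest Dnmt3b signal, array 1, was also the one with the lowest summed fibroblast marker signal. Dnmt3l was instead lowest on that array, at 10.90, and the part of fibroblast RNA in either gene was not tested.

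Dnmt3a, the other catalytic de novo enzyme, had signals of 7.46, 7.41 and 7.51 in rat ES cells and 7.61, 7.55 and 7.62 in fibroblasts. Every rat ES array was below every fibroblast array, but by little. The log2 difference was -0.13 (SE 0.06), with a limma adjusted p of 0.115 and a 95% interval of -0.28 to 0.01, so a decrease of 2-fold lay outside the interval. After quantile normalization it was -0.26 with a limma adjusted p of 0.00916, still far from 2-fold; over all 16 alternatives the adjusted p was 0.00916 to 0.284. The RefSeq gene table of assembly GRCr8 lists 3 pseudogenes of Dnmt3a, 2 of Dnmt3b and 3 of Tdg, and whether the probes of these genes also bind RNA from such copies was not tested.

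Both core maintenance genes rose in rat ES cells. Uhrf1, which brings Dnmt1 to newly replicated DNA, had signals of 11.24, 11.17 and 11.13 in rat ES cells, against 8.62, 8.55 and 8.54 in fibroblasts. Signals within each group lay close together (SD 0.057 in rat ES cells and 0.044 in fibroblasts) and the groups were far apart. The log2 difference was 2.61 (SE 0.07, 95% interval 2.45 to 2.76, limma adjusted p = 1.32e-08), or 6.09-fold. Dnmt1 itself had 10.48, 10.40 and 10.39 in rat ES cells and 8.68, 8.75 and 8.61 in fibroblasts. The difference of 1.74 (SE 0.07, 95% interval 1.59 to 1.90, limma adjusted p = 1.28e-07) corresponds to 3.35-fold, again with no overlap between the groups. All these signals were above the array medians in both groups.

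Uhrf2, which resembles Uhrf1 in its domains but does not replace it in maintenance in mouse ES cells, had signals of 9.20, 9.09 and 9.13 in rat ES cells and 8.48, 8.45 and 8.40 in fibroblasts. The groups did not overlap, and the log2 difference was 0.70 (SE 0.07, limma adjusted p = 2.39e-05), or 1.63-fold. It passed the adjusted p and missed the 2-fold threshold. Tdg had signals of 7.959, 7.999 and 8.081 in rat ES cells and 8.139, 8.138 and 8.029 in fibroblasts, so the groups overlapped. Its difference was -0.09, with a 95% interval of -0.25 to 0.07 and a limma adjusted p of 0.324. After quantile normalization it was -0.21 with a limma adjusted p of 0.0224, and over all 16 alternatives the adjusted p was 0.0224 to 0.538.

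**Figure D1:**
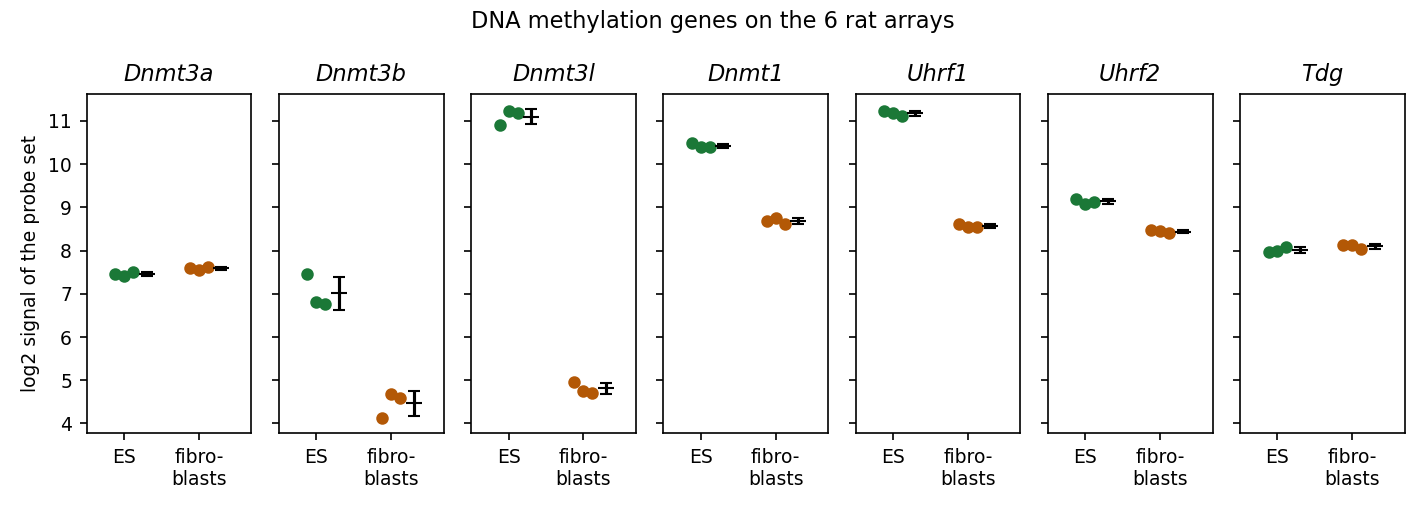
Log2 signal of the probe set of each of the 7 genes named in the rat table, on the 3 rat ES arrays (green, left in each panel) and the 3 rat fibroblast arrays (orange, right). Points are arrays in the order 1 to 3 and bars are mean ± SD. Dnmt3l, Dnmt3b, Dnmt1, Uhrf1 and Uhrf2 lay higher on every rat ES array, Dnmt3a slightly lower, and the groups overlapped for Tdg; levels of different genes cannot be compared.

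Counted together, rat ES cells were higher for 4 of the 7 genes (Dnmt3l, Uhrf1, Dnmt3b and Dnmt1) and lower for 0, where a call needs an adjusted p under 0.05 and a difference of at least 2-fold. Over all 14506 genes tested, 20.7% were called, 10.6% as higher and 10.1% as lower. With no fold threshold, 5 of 7 passed as higher, Uhrf2 being the fifth, and 0 as lower, against 56.3% of all genes in either direction, 30.9% higher and 25.5% lower. In limma 0 of 7 genes were lower at an unadjusted p under 0.05 either: the unadjusted p was 0.0717 for Dnmt3a and 0.238 for Tdg. The groups did not overlap for 6 of 7 genes, 5 with rat ES cells higher and 1, Dnmt3a, with rat ES cells lower, against 61.5% of all genes, 33.2% with rat ES cells higher and 28.3% with rat ES cells lower.

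**Figure D2:**
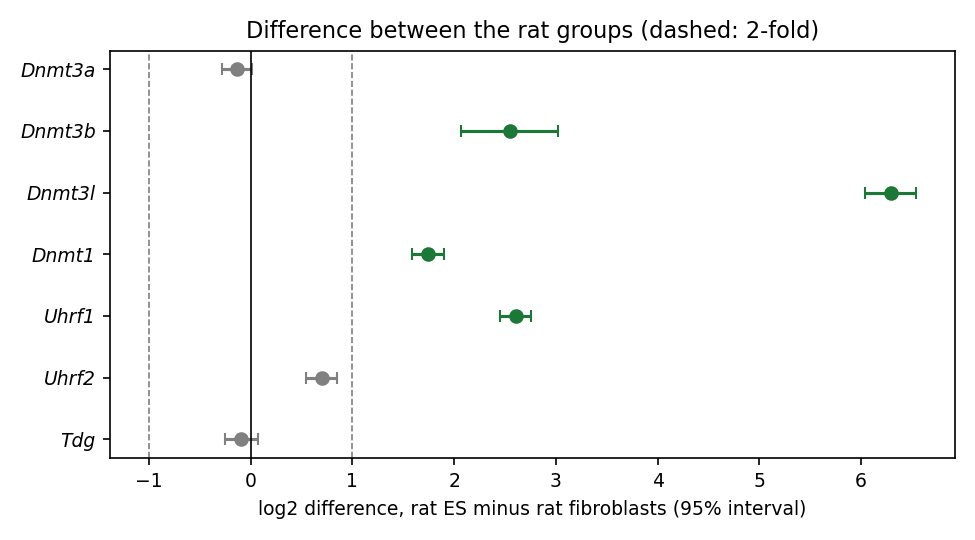
Log2 difference, rat ES minus rat fibroblasts, for the 7 genes, with 95% intervals from limma; green marks the 4 genes called higher, grey the 3 not called, and dashed lines mark 2-fold. The intervals of Dnmt3l, Uhrf1, Dnmt3b and Dnmt1 lie wholly above 2-fold, that of Uhrf2 lies between 0 and 2-fold, and those of Dnmt3a and Tdg include 0.

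Paralogs were also set against each other. Within each array, the Dnmt3b signal minus the Dnmt3a signal was -0.45 ± 0.393 in rat ES cells and -3.13 ± 0.309 in fibroblasts (SD, n = 3 each), a shift of 2.68. The corresponding shift of Dnmt3l relative to Dnmt3a was 6.42, that of Dnmt3l relative to Dnmt3b 3.75, and that of Uhrf1 relative to Uhrf2 1.91. In each of these 4 pairs the groups did not overlap, and the two-sided exact permutation test over the 6 arrays gave p = 0.1 (0.1 after adjustment over the 4 pairs), the smallest that 3 arrays against 3 allow. The 3 shifts that involve Dnmt3l or Dnmt3b rest on fibroblast signals not separable from background and are uncertain in size, above all that of Dnmt3l relative to Dnmt3b, where both are. No pair could pass a threshold of 0.05, and the values do not say which paralog is more abundant.

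The rat promoters of Dnmt3l, Uhrf1 and Dnmt1, which rose, and of Dnmt3a, which did not, are shown because CpG is the substrate on which these enzymes act. Dnmt3b also rose, but no promoter window was listed for it. The sequences are the 250 bases before the start in RefSeq's GRCr8 annotation, 5′ to 3′ on the gene's strand, with each CpG in capitals; for Uhrf1, which has 3 listed starts, the one with the most CpG is shown.
Dnmt3l, chr20:10628990-10629239, minus strand: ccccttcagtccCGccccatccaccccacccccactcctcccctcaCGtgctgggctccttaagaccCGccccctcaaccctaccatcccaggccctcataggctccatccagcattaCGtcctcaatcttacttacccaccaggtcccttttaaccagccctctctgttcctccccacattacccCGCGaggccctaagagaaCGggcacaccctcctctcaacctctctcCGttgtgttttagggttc
Uhrf1, chr9:1222936-1223185, plus strand: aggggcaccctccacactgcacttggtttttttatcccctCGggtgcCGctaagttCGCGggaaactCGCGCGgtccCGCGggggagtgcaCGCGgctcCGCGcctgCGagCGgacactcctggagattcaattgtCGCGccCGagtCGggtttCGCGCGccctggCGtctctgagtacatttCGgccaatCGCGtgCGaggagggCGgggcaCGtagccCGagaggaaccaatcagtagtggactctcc
Dnmt1, chr8:27762842-27763091, minus strand: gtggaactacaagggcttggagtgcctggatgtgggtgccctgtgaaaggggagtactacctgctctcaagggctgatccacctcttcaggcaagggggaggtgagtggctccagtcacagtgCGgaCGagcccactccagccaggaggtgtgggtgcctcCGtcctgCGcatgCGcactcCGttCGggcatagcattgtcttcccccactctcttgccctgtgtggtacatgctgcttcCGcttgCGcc
Dnmt3a, chr6:32598352-32598601, plus strand: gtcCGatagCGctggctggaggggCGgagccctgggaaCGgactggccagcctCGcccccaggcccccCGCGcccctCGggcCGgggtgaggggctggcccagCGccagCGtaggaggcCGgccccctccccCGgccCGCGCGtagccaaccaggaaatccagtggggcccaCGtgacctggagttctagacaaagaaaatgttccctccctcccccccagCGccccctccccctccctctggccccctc
The Dnmt3l stretch holds 8 CpG and the Uhrf1 stretch 30, while Dnmt1 has 9 and Dnmt3a 18. Of all 33469 promoter windows in the same table, 58.4% have fewer CpG than Dnmt3l, 94.7% fewer than this Uhrf1 start, 61.5% fewer than Dnmt1 and 79.9% fewer than Dnmt3a. The other 2 Uhrf1 starts hold 6 and 11. The promoters of Uhrf2 and Tdg hold 23 and 16. Methylation of these promoters was not measured.

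Because Uhrf1 and Dnmt1 are used in S phase, their windows were also searched on both strands for 3 spellings of the E2F motif, the binding sequence of the S phase transcription factors: TTTCGCGC, TTTGGCGC and TTTCCCGC. This search covered the whole window of 250 bases before to 50 after the start. Of the 6 rat-named genes with a window, matches were found in Uhrf1 and Dnmt1 only, and for Uhrf1 only at the start with the most CpG. The windows of Tet1, Tet2 and Tet3 held none. Of all 33469 windows, 1.72% have a match to any of the 3. That share counts windows rather than genes and is not matched for CpG content, so no enrichment can be read from it. The spellings differ in their middle letters and do not overlap here. The matches are shown within 30 bases, the motif in capitals, as it reads on the gene's strand.
Uhrf1, TTTCCCGC, chr9:1222982-1223011, plus strand: ccgctaagttcGCGGGAAActcgcgcggtc
Uhrf1, TTTCGCGC, chr9:1223076-1223105, plus strand: cccgagtcgggTTTCGCGCgccctggcgtc
Dnmt1, TTTCGCGC, chr8:27762798-27762827, minus strand: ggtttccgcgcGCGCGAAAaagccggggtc
The first and the third read as the reverse complement of the spelling named. The Uhrf1 matches begin 193 and 99 bases before the start, and the Dnmt1 match at base 26 after it. They are matches of letters and were not tested as binding sites.

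Mouse ES cells could be set beside the rat cells only as ranks, since their arrays are of another design and were normalized apart. Each gene's percentile was taken within each array among the symbols shared by both tables, and no test was made across the tables. For Dnmt3l the mean percentile was 99.2 in mouse ES cells, 98.5 in rat ES cells and 18.9 in rat fibroblasts. The maintenance genes were close to each other in ES cells of the 2 species: Dnmt1 was at 96.1 in mouse ES cells, 96.8 in rat ES cells and 83.3 in rat fibroblasts. Uhrf1 was at 98.1 in mouse ES cells, 98.6 in rat ES cells and 81.9 in rat fibroblasts. These 3 genes ranked higher on each rat ES array than on each fibroblast array. On the mouse arrays Dnmt1 and Uhrf1 are among the probe sets that repeat 1 signal on all 3 arrays, at 9.55 and 10.26, and Dnmt3l repeats 10.97 on 2 of them, so the mouse arrays are not 3 separate readings of these genes.

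The catalytic de novo enzymes and Uhrf2 ranked differently in ES cells of the 2 species. Dnmt3b was at 97.8 to 97.9 on the mouse ES arrays, at 62.6, 51.8 and 50.9 on the rat ES arrays, and at 9.48 to 17.2 on the fibroblast arrays. Dnmt3a was at 94.9 to 95.1 on the mouse ES arrays, 61.2 to 62.8 on the rat ES arrays and 64.8 to 66.9 on the fibroblast arrays. For both genes every mouse ES array was above every rat ES array, and for Dnmt3a the rat ES arrays were the lowest of all. Uhrf2 ran the other way, at 53.5 to 56.4 on the mouse ES arrays, 87.6 to 89.1 on the rat ES arrays and 79.7 to 80.6 on the fibroblast arrays. Its mouse signal repeats 6.25 on arrays 1 and 3, so the mouse arrays are not separate readings of Uhrf2 either. Different probes measured each gene in the 2 species, so the part that probe response has in these gaps cannot be told apart from species and medium.

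**Figure D3:**
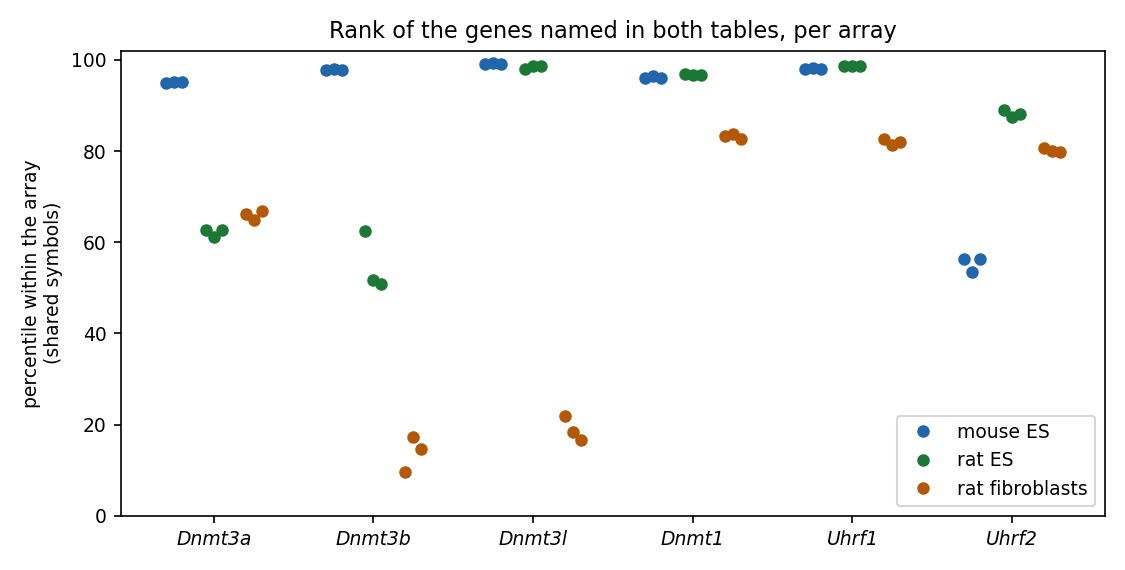
Percentile of the 6 genes named in both tables within each array, among the shared symbols (0 to 100, higher is brighter), for mouse ES (blue), rat ES (green) and rat fibroblast (orange) arrays; each point is 1 array. Dnmt3l, Dnmt1 and Uhrf1 lie near the top on all ES arrays, while Dnmt3a and Dnmt3b reach 94.9 to 97.9 on the mouse ES arrays and 50.9 to 62.8 on the rat ES arrays.

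The Tet genes were read in mouse ES cells only. Tet1, the Tet enzyme best known from mouse ES cells, had 3 probe sets, with log2 signals of 9.09 to 9.42, 8.80 to 9.03 and 8.12 to 8.83. The brightest of them was at percentiles 96.0 to 96.8 among all 19938 named mouse genes, far above the array medians. Tet2 had signals of 6.05 to 6.46, at percentiles 63.1 to 68.7. Tet3, known in mouse for its role in the zygote, had 2 probe sets at 5.25 and 4.72, each with the same value on all 3 arrays, and its brighter one was at percentiles 49.7 to 50.1. Both Tet3 values lay near the array medians of 4.75 to 4.77. Mouse Tdg is not analysed here, because all 4 of its probe sets also carry the symbol of a pseudogene.

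Among the shared symbols, the genes whose percentiles over the 9 arrays were most like those of Dnmt3l were Pou5f1, Nanog and Cdh1, with mean absolute differences of 3.02, 3.56 and 4.21 percentile points. For Dnmt3b they were Bex1 (5.52), Gsta4 (5.53) and St14 (6.24). For Dnmt1 they were Cd9 (0.77), the replication helicase gene Mcm6 (0.92) and Prps1 (1.08), and for Uhrf1 they were Slc7a3 (0.74), Hat1 (0.87) and again Prps1 (1.42). The 9 arrays fall into only 3 groups, so these are descriptions of shared levels.

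Genes that work around the methylation cycle were read from 8 lists, of which 72 of 85 listed genes were tested. Rat ES cells were higher for 31 of these 72 and lower for 4, or 43.1% and 5.56%, beside 10.6% and 10.1% of all genes. The median log2 difference of all genes was -0.00069.

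The maintenance cofactors gave the largest share of calls in the same direction as Dnmt1 and Uhrf1. Of 8 genes, 7 passed as higher and 0 as lower (median log2 difference 1.31). All 8 also passed the adjusted p alone as higher. Hells, a chromatin remodeller that mouse cells need for normal DNA methylation, was at 8.47 ± 0.141 in rat ES cells and 6.64 ± 0.070 in fibroblasts (difference 1.82). Cdca7, its binding partner, was at 8.33 ± 0.108 in rat ES cells and 6.54 ± 0.255 in fibroblasts (difference 1.79). Ctcf and Cdca7l lay near 2-fold, at 1.02 and 1.08. Ctcf missed it after quantile normalization (0.94), without rat ES array 2 (0.99) and without fibroblast array 3 (0.997), and Cdca7l without fibroblast array 2 (0.92).

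Replication and proliferation genes moved with the maintenance genes: 8 of 13 passed as higher and 0 as lower (median 1.60), and all 13 passed the adjusted p alone. Ccna2 lay just under 2-fold (0.99) and passed it without rat ES array 3 (1.13) or fibroblast array 3 (1.04). Mybl2, a transcription factor of cycling cells, differed by 3.61 and the replicative helicase gene Mcm5 by 2.14. The summed signal of the list was 14.18 to 14.29 on the rat ES arrays and 12.44 to 12.45 on the fibroblast arrays. The part of cell division in the differences of Dnmt1 and Uhrf1 was not tested.

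Of 5 methyl-CpG readers, proteins that bind methylated DNA, 0 passed as higher and 1 as lower (median 0.03), shares near those of all genes. The gene called lower was Mbd2, part of a repressive chromatin complex, at 7.20 ± 0.152 in rat ES cells and 9.49 ± 0.055 in fibroblasts (log2 difference -2.30, limma adjusted p = 1.11e-07). Mbd3, its close paralog, differed by 0.41, and Mbd1 by 0.42; both passed the adjusted p, at 4.13e-04 and 5.23e-04, but not 2-fold.

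Of 12 base excision repair genes, which complete removal after Tet and Tdg or after deamination, 3 passed as higher and 3 as lower (median 0.54). Parp1, a sensor of DNA strand breaks, was at 10.58 ± 0.042 in rat ES cells and 8.23 ± 0.103 in fibroblasts (difference 2.36), and the glycosylase gene Neil2 differed by 1.53, with a fibroblast signal below the array medians that leaves its size uncertain. The third was the uracil glycosylase gene Ung, at 1.28. The 3 called lower were the Gadd45 genes, stress-induced adaptors that have been linked to demethylation: Gadd45a at -1.92, Gadd45b at -1.90 and Gadd45g at -1.40. Ung and Gadd45g fell outside the rule for naming genes and were added after their values were seen.

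Of 14 imprint protectors and other regulators, 4 passed as higher and 0 as lower (median 0.58). Kdm1b (0.99) and Kdm1a (0.98) lay just under 2-fold. Kdm1b passed it without rat ES array 1 (1.05) or 2 (1.03) or fibroblast array 1 (1.04), and Kdm1a without fibroblast array 3 (1.04). Dppa3, which shields methylation in the mouse zygote and binds Uhrf1, was at 11.35 ± 0.113 in rat ES cells and 4.92 ± 0.258 in fibroblasts (difference 6.43); the fibroblast signal was below the array medians. Trim28, the corepressor that maintains imprints together with Zfp57, differed by 1.63 and Zfp57 itself by 0.50. The list holds genes with other roles too. Idh1, which makes the cosubstrate of Tet enzymes, differed by -0.77, and Idh2, of the same family, by 0.47, both without reaching 2-fold. Of 8 methyl donor enzymes, 2 passed as higher, Mthfd1 (1.35) and Ahcy (1.07), and 0 as lower (median 0.60). Ahcy, which clears the by-product of methyl transfer, was just under 2-fold after quantile normalization. Shmt1 (0.95) passed 2-fold without rat ES array 3 (1.06). Of 3 cytidine deaminase genes, 0 passed 2-fold, while 2 had an unadjusted p under 0.05, Apobec1 at 0.98 and Apobec3 at -0.996, which also passed the adjusted p. Both lay so near 2-fold that Apobec1 passed it without rat ES array 2 (1.03) or fibroblast array 1 (1.03), and Apobec3 without rat ES array 3 (-1.11) or fibroblast array 1 (-1.003) or 3 (-1.08), and after quantile normalization (-1.04). Apobec1 was below the array medians in both groups, so its difference is uncertain in size.

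Germline genes that promoter methylation is known to silence in somatic cells of the mouse were the last list. Of 9, 7 passed as higher and 0 as lower (median 1.34). Tex19.1 was at 8.70 ± 0.344 in rat ES cells and 3.93 ± 0.412 in fibroblasts (difference 4.77), and the piRNA pathway gene Asz1 differed by 2.80. In fibroblasts all 9 lay below the array medians, and in rat ES cells 6 did, so most of these genes were dim in both groups. Dazl missed 2-fold without rat ES array 1 (0.91), and only 4 of the genes were called when genes under the 25th percentile of mean level were left out. The summed signal of the list was 9.87, 9.77 and 9.46 on rat ES arrays 1, 2 and 3 and 7.05 to 7.09 in fibroblasts; across the same rat ES arrays the summed fibroblast markers ran the other way, and their part was not tested.

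**Figure D4:**
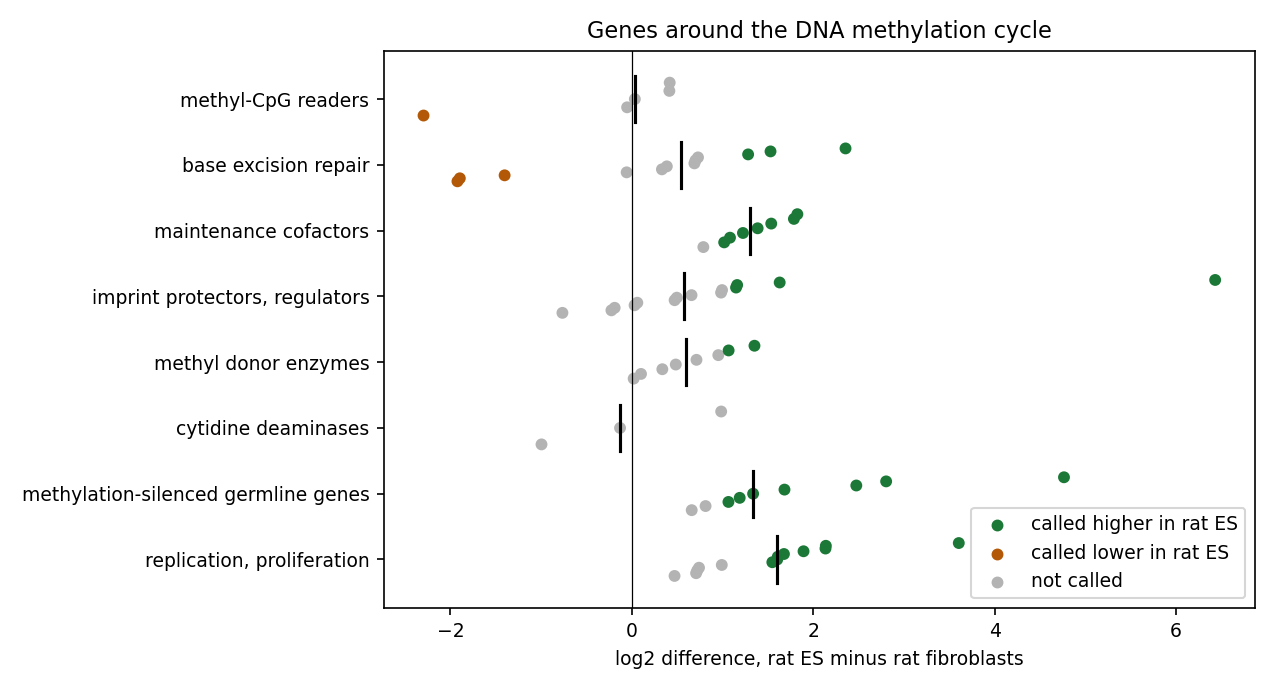
Log2 difference, rat ES minus rat fibroblasts, of the genes of 8 lists around the DNA methylation cycle; each point is a gene, green if called higher in rat ES cells, orange if called lower, grey if not called, and the black bar is the list's median. Maintenance cofactors (median 1.31), germline genes (1.34) and replication genes (1.60) lie mostly to the right, and the 4 genes called lower are Mbd2 and the 3 Gadd45 genes.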

How the data were processed

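Each array measured 1 RNA sample. The deposited tables, 1 of 6 rat arrays and 1 of 3 mouse arrays, hold a log2 signal for every probe set; that scale was read from the values. For background correction, normalization, probe summary and build, the sources used here give no method.

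Genes were named through the supplied platform annotation, which can be old: 15310 of 29215 rat and 21789 of 35557 mouse probe sets had 1 symbol, and the others were not used. The rat fit used group alone in limma 3.58.1 (R 4.3.3), with no level filter and Benjamini-Hochberg adjustment over 14506 genes. Percentiles used 12114 symbols shared by the tables. The members, lists and tests were chosen with earlier results of these data known. Named genes are all members, each list's called genes with the 2 largest differences in each direction, and the 3 nearest genes by percentile for Dnmt3l, Dnmt3b, Dnmt1 and Uhrf1; other named genes were added after their values were seen. On simulated data with 14506 genes and 200 changed, 100% of those changed by 1.5 and 100% of those changed by 3 (log2) were called, and 0 unchanged genes. Both sizes exceed 2-fold and far fewer genes were changed than were called here, so the simulation gives no error rate for these data. Planned Tet pairs were not run, since the rat table names no Tet gene. Same-numbered rat arrays deviated together at r = -0.00044, 0.031 and -0.0003, so replicate numbers were not treated as pairs. The number of arrays limits precision. Promoters are RefSeq's, assembly GRCr8. Alternatives were other normalizations, a level filter, other probe set rules, eBayes settings, thresholds, the replicate block and leaving out each array.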

Additional observations from a re-analysis of the deposited data

How the results depend on the processing

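The 4 calls among the 7 rat genes (Dnmt3l, Uhrf1, Dnmt3b and Dnmt1) and their directions held under all 16 alternatives, except that Dnmt1 at 1.74 missed a 4-fold threshold; Uhrf2 became a call where no fold was required. With the replicate number as a block, 4 members were called higher and 0 lower, 31 and 4 listed genes and 1538 and 1458 of all genes, so the block changed no count; only 1 of the 3 rat ES arrays, array 2, correlated best with the fibroblast array of its own number. Leaving out each array gave 4 members called higher each time, 30 to 33 listed genes called higher and 4 to 5 lower, and 1547 to 1571 or 1429 to 1488 of all genes.

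With no fold threshold, 56 listed genes were higher and 7 lower, and 4478 and 3694 of all genes. At 4-fold, these counts were 8 and 1, and 378 and 617. Testing every probe set apart called 2484 probe sets higher, over a larger and partly unnamed set. The median percentile of the 6 genes named in both tables was 97.0 in mouse ES, 92.5 in rat ES and 73.0 in rat fibroblasts as reported. Ranked among all named genes it was 97.9 in mouse ES, 93.1 in rat ES and 75.8 in rat fibroblasts. With the mean of all probe sets it was 97.2 in mouse ES. Each of the 6 genes has 1 probe set per table, so only the values ranked beside them changed. Depth of signal limits Dnmt3b and Dnmt3l, whose fibroblast signals were below the array medians.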

Other observations

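Other genes around the methylation cycle also ranked apart between ES cells of the 2 species; the following were chosen after their values were seen, were measured by different probes, and were not tested. Dppa3 was at percentiles 45.9 to 51.1 on the mouse ES arrays and 98.8 to 99.0 on the rat ES arrays, while Pou5f1 was at mean percentiles of 99.5 in mouse ES cells and 98.7 in rat ES cells. Asz1 was at 1.13 to 3.92 on the mouse ES arrays and 50.7 to 55.0 on the rat ES arrays. Gadd45a ran the other way, at 90.7 to 92.9 on the mouse ES arrays and 53.5 to 59.9 on the rat ES arrays, as did Apobec3, at 80.9 to 82.4 on the mouse ES arrays and 38.2 to 43.3 on the rat ES arrays. The fibroblast marker Postn, which is outside the methylation cycle, was at 4.67 to 4.90 on the mouse ES arrays and 60.3 to 76.1 on the rat ES arrays. It had the widest such gap of the 9 fibroblast markers, which did not all rank higher in rat ES cells. Thy1 was at mean percentiles of 53.9 in mouse ES cells and 33.9 in rat ES cells, and Vim at 91.0 and 79.0. Dcn also ranked higher in mouse ES cells, while Pdgfrb and Lum differed little.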
